A study of Mus musculus with 6 samples.

Results

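In αTC1 cells, a mouse glucagonoma line of pancreatic α cells, 10 genes of the actin cytoskeleton were followed after treatment with G786-1089 or with the solvent DMSO. They are the cytoplasmic actins Actb and Actg1, the actin-binding proteins Cfl1, Pfn1, Tpm1, Vcl, Flna, Tagln2 and Tmsb4x, and the transcription factor gene Srf. These 10 of the 55487 genes in the table were chosen by name because Actb was already known to be among the clearest decreases in these libraries, and the question was whether other genes controlled by SRF behave likewise. The labels describe G786-1089 as an inhibitor of SMNDC1, a splicing factor, and give neither its dose nor how long the cells were treated. There were 3 libraries for each treatment, marked WT in the names of the columns, and nothing in the labels says that they came from separate cultures. For its work on cultured cells in general, the study states that the treatments of a replicate were set up from 1 pool of cells and handled at the same time. Deposited totals were 59070705 to 69480568 counts with DMSO and 70150880 to 94747943 with G786-1089, so every G786-1089 library was deeper than every DMSO library. The share of counts in mitochondrial genes was also higher in each, 2.96% to 3.57% against 2.27% to 2.76%, and its part in the results was not tested. The glucagon gene Gcg marked the cells as labelled, with 17090 to 19370 FPKM in the DMSO libraries and 2401 to 3024 in those with G786-1089. Listed markers of other cell types had low sums beside Gcg. For 8 endothelial and blood markers the sum was 4.79 to 7.17 FPKM with DMSO and 6.1 to 14.3 with G786-1089. For 8 beta cell markers it was 3.64 to 4.82 FPKM with DMSO and 2.48 to 3.91 with G786-1089. Of 8 fibroblast markers, 5 were at 0 in every library, and their summed level was 0.28 to 0.842 FPKM with DMSO and 0 to 0.0403 with G786-1089. Of 10 muscle markers, 3 were at 0 in every library, and their sum was 9.04 to 13.2 FPKM with DMSO and 10.9 to 11.3 with G786-1089.

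Actin exists in cells as monomers and as filaments, and the genes studied act at each step between them. Profilin and thymosins bind monomers, cofilin severs filaments, tropomyosins and transgelins lie along them, filamin cross-links them and vinculin ties them to adhesion sites. Actin also feeds back on its own genes. Free monomers hold MRTF coactivators in the cytoplasm, and when monomers are used up MRTF enters the nucleus and activates, together with SRF, genes with a CArG box in their promoters, many of which encode actin and its partners. SRF has a second set of partners, the TCF proteins Elk1, Elk3 and Elk4, through which it drives immediate early genes such as Fos and Egr1.

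The CArG box was looked for, by its standard definition and on a window from 250 bases before to 50 after each RefSeq transcription start of GRCm38.p6. The box reads the same way on both strands. Of 32851 such promoters of all genes, 1.63% held one. A promoter was at hand for 9 of the 10 genes, and that of Actb was not analysed here. The box was in 3 of the 9, those of Actg1, Vcl and Srf. The stretches that carry it are shown because they separate these genes from Cfl1, Pfn1, Tpm1, Flna, Tagln2 and Tmsb4x, whose windows held none. Capitals mark the box, and each stretch lies upstream of the start and is written on the strand of the gene.
Actg1 (chr11:120348546-120348625, minus strand): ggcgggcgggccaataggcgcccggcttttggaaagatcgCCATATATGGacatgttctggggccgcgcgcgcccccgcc
Vcl (chr14:20929148-20929210, plus strand): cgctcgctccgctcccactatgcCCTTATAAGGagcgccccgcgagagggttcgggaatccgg
Srf (chr17:46556205-46556284, minus strand): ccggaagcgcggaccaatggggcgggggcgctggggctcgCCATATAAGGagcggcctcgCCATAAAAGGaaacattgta
The box of Actg1 began 90 bases before the start and that of Vcl 227 bases before it. Srf had a pair of boxes, beginning 82 and 62 bases before its start. A match of letters is a description of the window, and boxes farther from the start or inside a gene were not searched.

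Actb and 4 of the actin-binding proteins were lower with G786-1089, whereas Actg1 was not. Actb (ENSMUSG00000029580, chromosome 5, 142903115 to 142906754 of GRCm38, minus strand) encodes β-actin. It was at 1771, 1960 and 1808 FPKM in the 3 DMSO libraries and at 628, 620 and 560 in the 3 with G786-1089. FPKM, fragments scaled by transcript length and by a factor for each library, is the deposited value that can be set side by side between genes. Between libraries it depends on that factor, which did not follow the total counts alone. Relative to G786-1089 A it was 0.866 in DMSO B, although their totals were 70150880 and 69480568 counts. The groups of Actb values lay far apart. Their means were 1846 and 602.6 FPKM (n = 3 each), a ratio of 3.06, and the log2 fold change of the counts was -1.61 (SE 0.07). These are bulk libraries, in which fewer cells with a transcript and less of it per cell cannot be told apart, and a lower share of all RNA need not be a lower amount per cell. None of the exon bases of Actb lay in another gene, and 20 of 1821 windows of 100 bases in its longest coding transcript were found in a transcript of another gene.

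Actg1 (ENSMUSG00000062825, chromosome 11, 120345690 to 120348542, minus strand) encodes γ-actin, whose protein is nearly identical to β-actin. Its values were 482, 510 and 526 FPKM with DMSO and 621, 644 and 546 with G786-1089. The lowest library with G786-1089 was above the highest with DMSO, and the log2 fold change was 0.26 (SE 0.07), which did not pass the threshold used for calls, an edgeR adjusted p under 0.05 over all genes. It did pass in 7 of 17 other settings, each time as higher. The reads of Actg1 are less sure than those of Actb. Of its 1853 windows of 100 bases, 946 were also found in 6 other genes, all processed pseudogenes, which held counts equal to 54.4% ± 0.84 of those of Actg1 with DMSO and 54.3% ± 3.85 with G786-1089 (SD, n = 3 each). The copies thus took a like share in both groups, and reads of Actg1 placed on them are missing from the level given for it. None of the windows of 100 bases in Actb was found in Actg1.

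As the cytoplasmic actins are read in the same libraries, their ratio does not depend on scaling between libraries. Actb made up 78.6%, 79.3% and 77.5% of the summed FPKM of Actb and Actg1 in the DMSO libraries and 50.3%, 49.0% and 50.6% in those with G786-1089. The means were 78.5% ± 0.94 and 49.98% ± 0.84 (SD, n = 3 each), a difference of -28.5 percentage points, and no library came near the other group. The FPKM ratio of Actb to Actg1 was thus 3.65 ± 0.20 with DMSO and 1.0 ± 0.033 with G786-1089. It leaves out reads of Actg1 placed on its copies, so it is not a ratio of transcript numbers. The summed level of the pair was 2352 ± 109.9 FPKM with DMSO and 1206 ± 87.6 with G786-1089, or 1.95 times higher with DMSO. With the pseudogene copies counted as Actg1, the share of Actb in the counts was 69.9% ± 1.05 with DMSO and 38.9% ± 0.77 with G786-1089.

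**Figure D1:**
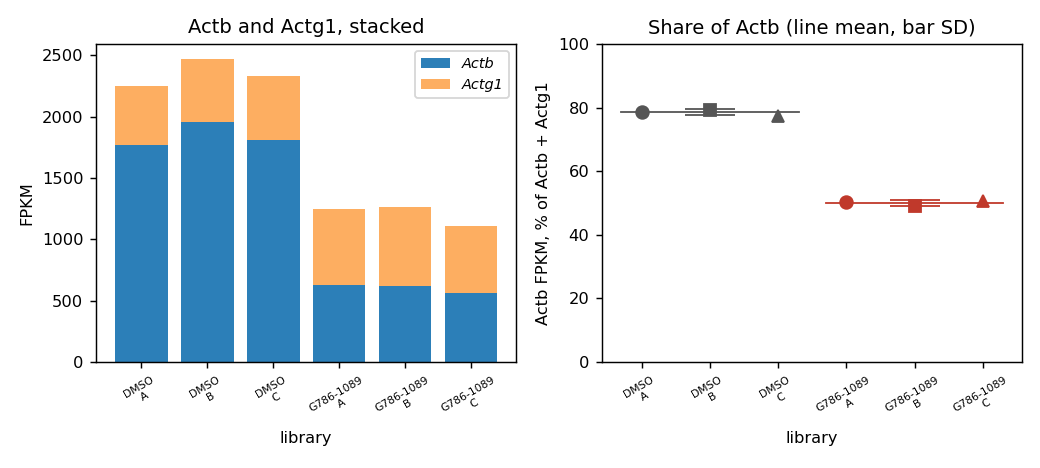
Left, FPKM of Actb (blue) and Actg1 (orange) stacked for each of the 6 libraries. Right, the share of Actb in the sum for each library in percent, with the mean as a line and the SD as a bar; the DMSO libraries sit between 77.5% and 79.3% and the G786-1089 libraries between 49.0% and 50.6%.

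Muscle actins were close to absent. Acta1, skeletal actin, had 12 to 88 counts in a library, with overlapping groups and a log2 fold change of -0.65 (SE 0.96, edgeR adjusted p = 0.729). Acta2, smooth muscle actin, had 2 counts in a single library, and Actg2, of enteric smooth muscle, was listed at 0 in all. Actc1, cardiac actin, had 23, 92 and 127 counts with DMSO and 0 in every G786-1089 library. Against a floor of 3 counts per library it was at least 39.5-fold lower, and its edgeR adjusted p was 0.0174. Even with DMSO it stayed under 1.5 FPKM, against 1846 for Actb.

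The proteins that bind monomers were among those lower with G786-1089. Pfn1 (ENSMUSG00000018293, chromosome 11, 70651850 to 70654644), profilin, which loads actin with ATP and hands it to growing filaments, was at 131, 124 and 149 FPKM with DMSO. With G786-1089 it was at 44.4, 44.5 and 47.6 FPKM, a narrow range well below the DMSO libraries. Its log2 fold change was -1.56 (SE 0.12). Tmsb4x (ENSMUSG00000049775, chromosome X, 167207093 to 167209315), thymosin β4, which sequesters monomers, was at 75.7, 89.6 and 85.2 FPKM with DMSO and at 42.7, 35.4 and 42.8 with G786-1089. The groups did not overlap, and the log2 fold change was -1.05 (SE 0.13). Neither gene shared exon bases or windows of 100 bases with another gene.

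Cfl1 (ENSMUSG00000056201, chromosome 19, 5490455 to 5495201), cofilin, severs filaments and returns monomers to the pool. It was at 46.4, 33.1 and 43.5 FPKM with DMSO and at 20.8, 22.7 and 20.7 with G786-1089. DMSO library B was the lowest of its group and still above every G786-1089 library, and the log2 fold change was -0.94 (SE 0.15). Of the exon bases of Cfl1, 16.5% overlap the gene Snx32, and reads there cannot be assigned to one of the genes.

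Tagln2 (ENSMUSG00000026547, chromosome 1, 172500047 to 172507380), transgelin 2, which binds along filaments, was the third most abundant of the 10 genes. It was at 351, 382 and 333 FPKM with DMSO and at 99.0, 138 and 119 with G786-1089, groups that were far apart, with a log2 fold change of -1.58 (SE 0.13). Tpm1 (ENSMUSG00000032366, chromosome 9, 67022590 to 67049406), a tropomyosin that stabilises filaments, was at 12.4, 14.1 and 11.8 FPKM with DMSO and at 10.9, 11.4 and 8.86 with G786-1089. In FPKM these groups did not overlap either, but they nearly touched, and its log2 fold change of -0.29 (SE 0.15) was not called. With scaling by library size alone it was -0.09 (SE 0.15).

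Flna (ENSMUSG00000031328, chromosome X, 74223461 to 74249820), filamin A, which cross-links filaments and anchors them to the membrane, was at 3.49, 4.34 and 3.41 FPKM with DMSO and at 4.4, 2.72 and 2.51 with G786-1089. The groups overlapped, and the log2 fold change was -0.22 (SE 0.26). Vcl (ENSMUSG00000021823, chromosome 14, 20929398 to 21033676), vinculin, was barely detected, with 19, 33 and 34 counts with DMSO and 40, 76 and 210 with G786-1089. In FPKM, 0.0545 to 0.109 against 0.0927 to 0.42, the groups overlapped. Its log2 fold change of 1.36 had an SE of 0.81 and was 0.43 (SE 0.77) without G786-1089 library C. Exons of Ap3m1 overlap 25.5% of the exon bases of Vcl.

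Srf (ENSMUSG00000015605, chromosome 17, 46548329 to 46556175) had 340 counts in G786-1089 library B and 0 in the other 5 libraries, and was too low to be tested. A count of 0 allows up to 3 counts, or 0.0379 to 0.0508 CPM (counts scaled to library size) in these 5 libraries. Across the table, 285 genes had at least 100 counts in 1 library and 0 in the other 5. At this detection nothing can be said of a difference in Srf.

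**Figure D2:**
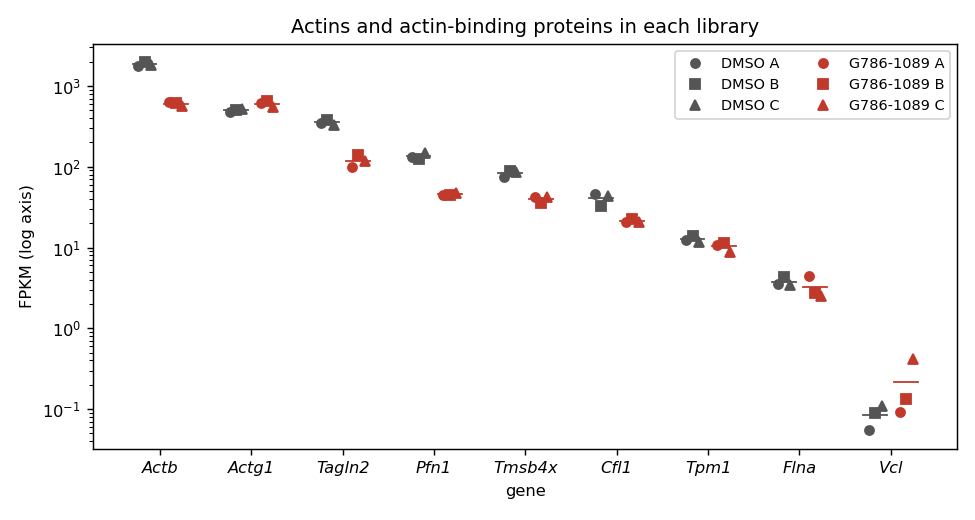
FPKM on a log axis for 9 genes, ordered by their DMSO level, with 1 point for each library (grey DMSO, red G786-1089, symbols for the column letters A to C) and a line at the group mean. Actb, Tagln2, Pfn1, Tmsb4x and Cfl1 show red points well below grey ones, Actg1 shows red points slightly above grey ones, and Flna and Vcl overlap. Srf is left out as it was at 0 in 5 libraries.

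With DMSO the order of the levels was Actb, Actg1, Tagln2, Pfn1, Tmsb4x, Cfl1, Tpm1, Flna, Vcl and Srf, and the range of each gene was clear of the next down to Vcl, with Srf at 0. With G786-1089 the order was the same except at its ends. Actg1 and Actb overlapped there (546 to 644 and 560 to 628 FPKM), as did Srf and Vcl. Of the 9 genes tested, 5 were called, Actb, Pfn1, Tagln2, Tmsb4x and Cfl1, all lower; across all 15082 genes tested, 7.8% were called lower and 6.98% higher. In FPKM, every G786-1089 library was below every DMSO library for 6 of the 9, the 5 called and Tpm1, and above for 1, Actg1; over all genes tested these shares were 18.6% and 18.1%. The study narrowed its splicing events with a filter on the DESeq2 results of their genes. That filter asks for an adjusted p no higher than 0.1 and at least a doubling or its inverse (1 on the log2 scale). Applied here to the edgeR values, without splicing, it was passed by 4 of the 9, against 10.4% of all genes. As the genes were chosen on this same comparison, these counts describe them and support nothing further. The median log2 fold change of the 9 was -0.94, and that of all genes was 0.04.

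Level matters for such counts. Among the 4453 genes whose average log2 CPM reached 5, 20.8% were called lower and 13.6% higher, with a median log2 fold change of -0.08. Of the 10 genes, 8 are in this class, all but Vcl and Srf. The plot of change against level marks calls for genes of the actin machinery only, and most of those called lie at the right of the range.

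**Figure D3:**
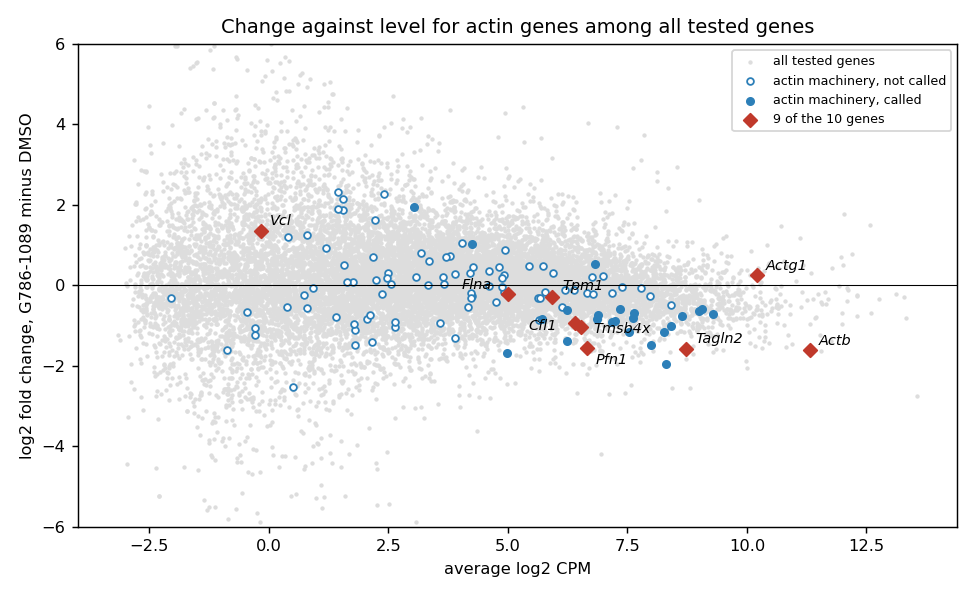
Log2 fold change (G786-1089 minus DMSO) against average log2 CPM for all tested genes (grey), 107 other genes of the actin machinery (blue, filled where called) and 9 of the 10 genes (red). Most filled points lie to the right and below 0, while Actg1 lies just above 0 at a level near that of Actb; the axis ends at 6 and leaves out 119 genes, Actc1 among them.

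Paralogs of the same family were compared within each library by their FPKM ratio. Pfn1 exceeded Pfn2, the profilin typical of neurons, 4.74 ± 0.30 times with DMSO and 4.41 ± 1.02 times with G786-1089 (SD, n = 3 each), so the ratio differed by less than its spread. Pfn2 itself fell, from 28.4 ± 2.13 to 10.8 ± 3.13 FPKM (log2 fold change -1.39, SE 0.22, edgeR adjusted p = 0.00829). Tagln2 stood to Tagln3, a neuronal transgelin, as 1.28 ± 0.10 with DMSO and 1.20 ± 0.12 with G786-1089, again within the spread. Tagln3 fell from 277.9 ± 10.1 to 98.8 ± 6.36 FPKM (log2 fold change -1.49, SE 0.08, edgeR adjusted p = 0.000236). These profilins and transgelins were thus lower by like factors. The thymosins were not. Tmsb4x was at 0.232 ± 0.033 of Tmsb10, its close relative, with DMSO and at 0.435 ± 0.025 with G786-1089, with no overlap between libraries. Tmsb10 fell from 362.7 ± 22.7 to 92.6 ± 4.75 FPKM (log2 fold change -1.97, SE 0.09, edgeR adjusted p = 0.000106), the largest fall of a called gene in the actin lists above an average log2 CPM of 3. Cfl1 stood to Cfl2, the cofilin of muscle, as 1.11 ± 0.13 with DMSO and 0.689 ± 0.114 with G786-1089. The ratio of Actb to Actg1 differed more than that of any of the other 7 pairs compared, by -1.87 on the log2 scale.

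The question behind the choice of genes is whether known targets of MRTF and SRF were lower as Actb was. Besides the 10 genes, 22 targets were listed from general knowledge. Of these, 7 were at 0 in all libraries and 10 were tested, of which 4 were called and all 4 were lower, Tpm4, Fhl1, Tpm3 and Actc1. Beside the background of 7.8% called lower, the list is short, and the median of its 10 tested genes was -0.70 on the log2 scale. Called or not, 8 of the 10 had a log2 fold change below 0, against 48.2% of all genes tested. Tpm4 fell from 79.2 ± 10.6 to 43.1 ± 6.06 FPKM (log2 fold change -0.88, SE 0.15, edgeR adjusted p = 0.0109). Fhl1, a LIM domain protein abundant in muscle, was at 57.3, 58.1 and 56.2 FPKM with DMSO and at 38.8, 23.6 and 31.9 with G786-1089 (edgeR adjusted p = 0.024). Tpm3 fell from 67.4 ± 7.46 to 41.9 ± 3.92 FPKM (edgeR adjusted p = 0.0116), with 45.7% of its windows shared with Tpm3-rs7. The calls were sensitive. With the letter of the column as a replicate block, 0 of the 10 passed in edgeR, and 5 had an unadjusted p under 0.05. The edgeR adjusted p was then 0.0528 for Tpm4, 0.0519 for Fhl1, 0.0548 for Tpm3 and 0.0813 for Actc1. Without a block, DESeq2 called 5 of 15 targets it could test, 4 of them lower. Without DMSO A, B or C, 2 were called.

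Classical targets of the pathway that mark contractile and adherent cells gave no reading. Tagln, Myl9, Tpm2, Ccn1 and Ccn2 were at 0 in all 6 libraries, and Cnn1 had 14 counts in 1. Other genes overlap 67.9% of the exon bases of Tagln and 23.2% of those of Ccn2, and reads in such stretches are not counted. The tested targets Zyx, Tln1 and Myh9 were not called, with log2 fold changes of 0.21, 0.30 and -0.73 (edgeR adjusted p = 0.702, 0.476 and 0.537). These 9 genes were singled out after their values had been seen.

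Partners of SRF were few and low. Of 10 listed genes besides Srf, 7 were tested and 0 were called by edgeR or DESeq2, while 2 had an unadjusted p under 0.05 in edgeR. Limma on FPKM also called 0, but its minimum mean of 1 FPKM left out Mrtfa, Elk3, Elk4 and Scai. Mrtfb, the better detected MRTF gene, was at 1.25, 0.84 and 1.76 FPKM with DMSO and at 2.21, 1.77 and 3.29 with G786-1089. These groups nearly touched, and the log2 fold change was 0.93 (SE 0.36, edgeR adjusted p = 0.152). Mrtfa overlapped between groups, at 0.00597 to 0.505 FPKM with DMSO and 0.462 to 1.06 with G786-1089 (edgeR adjusted p = 0.401). Elk1 overlapped between groups, with a log2 fold change of -0.23 (SE 0.43, edgeR adjusted p = 0.788).

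Targets of the other SRF partners were mixed. Of 9 immediate early genes, 7 were tested and 1 was called, against 6.98% of all genes called higher. This was Junb, a subunit of AP-1. It was at 1.98, 3.31 and 3.02 FPKM with DMSO and at 10.6, 13.7 and 10.6 with G786-1089, and rose by 2.07 on the log2 scale (SE 0.30, edgeR adjusted p = 0.00599). Fos had 6, 224 and 114 counts with DMSO and 1010, 882 and 1579 with G786-1089, and Egr1 had 6, 0 and 88 against 620, 413 and 242. For both, every G786-1089 library was above every DMSO library, but the spread among DMSO libraries was wide, and with log2 fold changes of 2.84 (SE 1.05) and 3.15 (SE 1.67) neither was called (edgeR adjusted p = 0.131 and 0.281). Ier2 and Mcl1 had log2 fold changes of 1.52 and 0.46 with overlapping groups (edgeR adjusted p = 0.295 and 0.629). On the other side of 0, Nr4a1, a nuclear receptor, was at 2.76, 3.30 and 3.79 FPKM with DMSO and at 2.48, 2.64 and 1.86 with G786-1089, without overlap (log2 fold change -0.49, SE 0.31, edgeR adjusted p = 0.358), and Egr2, with 0 to 219 counts in a library, had -1.79 (SE 2.32, edgeR adjusted p = 0.686). The median log2 fold change of the 7 was 1.52. Whether the lists differ from each other was not tested.

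The wider actin machinery was read from lists of its parts. They hold 138 genes besides the 10, of which 107 were tested and 24 called, 21 lower and 3 higher. Without DMSO library B, 15 were called, all lower, and with the replicate block also 15, all lower. With all libraries and no block, 19.6% were called lower, against 7.8% of all genes. Among those whose average log2 CPM reached 5, 19 of 39 were called lower and 1 higher, against 20.8% and 13.6% of all genes at that level, and the median log2 fold change was -0.58. Near-identical copies or overlapping exons touched some of these genes. Of the 24, 18 shared less than 10% of their windows and of their exon bases with other genes.

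Among genes of monomer binding and turnover, 20 were tested besides the 10, and 4 fell and 2 rose. Tmsb10 and Pfn2, given above, fell most, followed by Coro1c, a coronin of filament turnover, from 51.5 ± 6.12 to 34.1 ± 2.48 FPKM (edgeR adjusted p = 0.021). The 2 called higher were Limk2 and Ssh1. Limk2, a kinase that inactivates cofilin, rose from 21.0 ± 1.32 to 30.5 ± 3.66 FPKM (edgeR adjusted p = 0.0307), and Ssh1, a phosphatase that reactivates it, from 0.363 ± 0.060 to 1.41 ± 0.74 (edgeR adjusted p = 0.0486). In G786-1089 library A, Ssh1 was at 0.555 FPKM, close to the DMSO libraries. These calls were fragile: that of Limk2 was kept in 8 of 17 other settings and that of Ssh1 in 5 of 15, and both were lost with the replicate block (edgeR adjusted p = 0.0853 and 0.0996). That of Coro1c was kept in 10 of 17 and lost with the block (edgeR adjusted p = 0.0778). The related kinases and phosphatases Limk1, Tesk1, Tesk2 and Ssh2 were tested and not called.

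The Arp2/3 complex starts branches on existing filaments. Of 21 tested genes of the complex and its activators, 4 were called, all lower. Arpc5 was at 184, 188 and 241 FPKM with DMSO and at 82.4, 104 and 88.3 with G786-1089, a log2 fold change of -1.16 (SE 0.14, edgeR adjusted p = 0.00314). Arpc4 fell to a like extent, by 1.15 on the log2 scale (SE 0.17, edgeR adjusted p = 0.00688), with 12.2% of its exon bases in the gene Ttll3. Brk1, a small subunit of the WAVE complex that activates Arp2/3, fell from 126.1 ± 24.0 to 70.3 ± 11.9 FPKM (edgeR adjusted p = 0.0308), a call kept in 10 of 17 other settings. Formins and other nucleators, which start unbranched filaments, were low. Of 13 tested, 0 were called by edgeR or DESeq2, with 0 at an unadjusted p under 0.05 in edgeR. Limma on FPKM also called 0, but its minimum mean of 1 FPKM left out most of the 13. None of the 13 had an average log2 CPM of 5, so the lists cannot be compared at the same level.

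Among cross-linkers and bundlers, 3 of 13 tested besides Flna and Tagln2 were lower. These were Tagln3, given above, Pls3, a plastin that bundles filaments, from 12.3 ± 1.31 to 3.82 ± 0.74 FPKM (log2 fold change -1.69, SE 0.21, edgeR adjusted p = 0.00369), and Cnn3, a calponin, from 84.6 ± 16.1 to 44.8 ± 9.56 (edgeR adjusted p = 0.031), a call kept in 10 of 17 other settings. Of the proteins that cap filament ends, 1 of 8 was called, a share near those of all genes. Capzb, the β subunit of capping protein, fell from 218.4 ± 7.32 to 129.3 ± 9.74 FPKM (edgeR adjusted p = 0.00178). Among tropomyosins and non-muscle myosin II, 3 of 9 tested besides Tpm1 were lower, Tpm4 and Tpm3 as above and Myl6, the essential light chain, from 338.8 ± 24.8 to 216.6 ± 18.5 FPKM (edgeR adjusted p = 0.00584).

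Of 11 tested focal adhesion genes besides Vcl, 1 was lower and 1 higher, shares near the 7.8% and 6.98% of all genes. Parva, a parvin that links integrins to actin, fell from 13.3 ± 1.40 to 7.47 ± 1.93 FPKM (edgeR adjusted p = 0.0457), and Bcar1, the scaffold p130Cas, rose from 3.56 ± 0.45 to 7.24 ± 1.45 (edgeR adjusted p = 0.0344). The call of Parva was kept in 7 of 17 other settings and that of Bcar1 in 8, and both were lost with the replicate block (edgeR adjusted p = 0.0649 and 0.111). Ilk, the kinase that binds parvins, was listed at 0 in all libraries, but 89.7% of its exon bases overlap Rrp8 and Taf10, and it was singled out after its values had been seen. The small GTPases that direct filament assembly, with their effectors, had 4 of 10 tested genes lower. Cdc42 was at 141, 144 and 140 FPKM with DMSO and at 75.4, 72.2 and 64.0 with G786-1089, a log2 fold change of -1.0 (SE 0.08, edgeR adjusted p = 0.000799). Rac1 fell by 0.80 (SE 0.10, edgeR adjusted p = 0.00369), although 51.4% of its exon bases lie in exons of Daglb. Arhgdia, an inhibitor that keeps such GTPases in the cytosol, fell by 0.71 (SE 0.09, edgeR adjusted p = 0.0041).

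**Figure D4:**
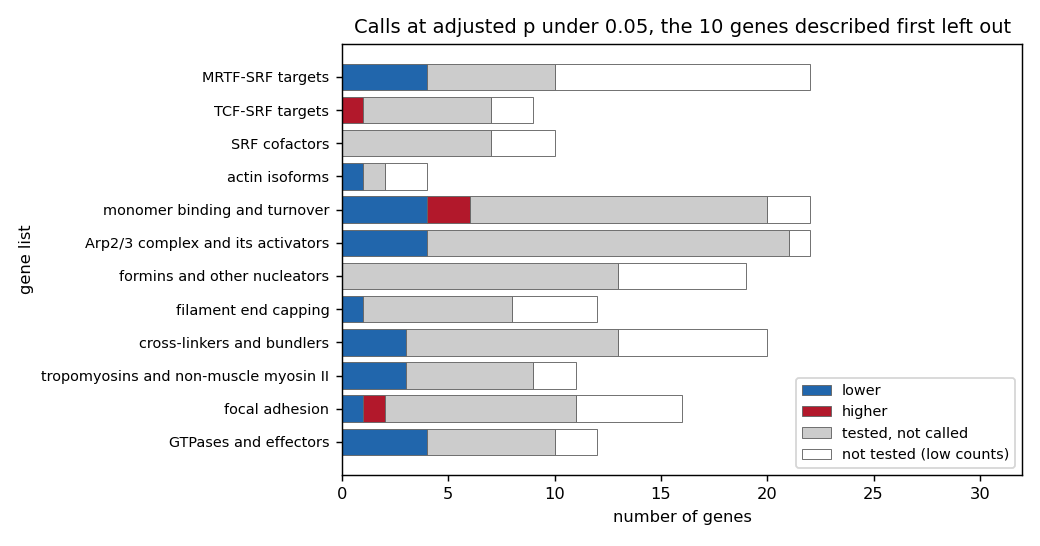
Number of genes in each list that were called lower (blue) or higher (red) with G786-1089, tested but not called (grey), or not tested for low counts (white), with the 10 genes left out. Blue segments are longer than red ones except for focal adhesion, with 1 gene each way, and the TCF-SRF targets, where 1 gene was called and was higher, and no gene was called among SRF cofactors or formins and other nucleators.

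Promoters with a CArG box were not limited to called genes. Without Actb, whose promoter was not analysed here, the actin machinery had 31 promoters of genes called lower, of which 3 held the box, those of Actc1, Arpc4 and Myl6. It was in 6 of the 87 promoters of genes tested and not called, Actg1 and Vcl among them, and 1.63% of all promoters held one. Of 31 promoters of listed MRTF-SRF targets, 12 held it (38.7%).

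Actb is also a common reference gene for quantitative PCR, so the usual reference genes were read beside it. Of 14 others, all tested, 3 were called lower and 1 higher, against 7.8% and 6.98% of all genes. Ywhaz, a 14-3-3 protein, fell from 231.2 ± 16.9 to 95.9 ± 4.67 FPKM (SD, n = 3 each; log2 fold change -1.27, SE 0.08, edgeR adjusted p = 0.000279). Ppia, cyclophilin A, fell by 0.94 (SE 0.09, edgeR adjusted p = 0.00114), although 31.2% of its windows of 100 bases are shared with copies. Rplp0, a ribosomal protein, fell by 0.22 (SE 0.05, edgeR adjusted p = 0.0285). Tfrc, the transferrin receptor, rose from 4.25 ± 0.75 to 15.5 ± 4.25 FPKM (log2 fold change 1.87, SE 0.25, edgeR adjusted p = 0.00458). Sdha and Gapdh were not called, with log2 fold changes of -0.07 (SE 0.08) and -0.05 (SE 0.05; edgeR adjusted p = 0.613 and 0.567), and 78.0% of the windows of Gapdh are shared with 86 other genes.

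**Figure D5:**
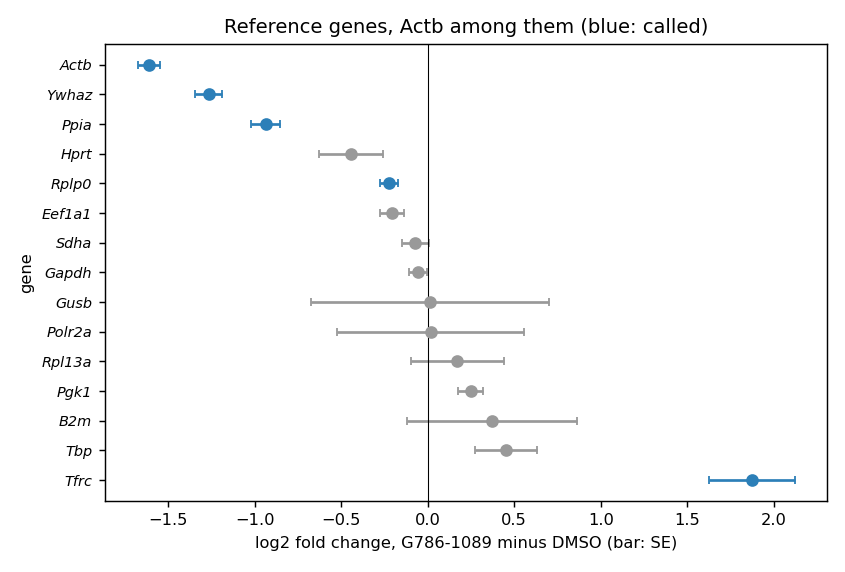
Log2 fold change (G786-1089 minus DMSO) with its SE for 15 reference genes, blue where called. Actb at -1.61 is the lowest and Tfrc at 1.87 the highest, and Gapdh and Sdha lie within 0.1 of 0.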

How the data were processed

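RNA was taken by the authors through Smart-seq2 and Nextera XT, sequenced as 100 bp read pairs, aligned with STAR to GRCm38 and counted in Union mode irrespective of strand; the counts deposited by the authors are whole numbers per gene without normalization. The FPKM values were also deposited by the authors, and how they were made is not given in the sources used here. Columns were assigned to treatments by name; their letters A to C could not be matched to the numbers of the labels. Counts were fitted with edgeR 4.0.16 in R 4.3.3 (filterByExpr with a minimum count of 10 and total of 15, TMM, quasi-likelihood test, Benjamini-Hochberg adjustment over 15082 genes, called under 0.05), with SE as the absolute log2 fold change over the square root of F. The script was tested on simulated data. Alternatives were DESeq2 1.42.0, limma 3.58.1 on log2(FPKM + 1) or + 0.1 with a mean FPKM of at least 1 or no minimum, other scaling and filters, gene length offsets, a replicate block and each library left out. The pseudogene count of Actg1 was added after seeing the data. P-values measure the spread between these libraries, which may be technical, and floors cover counting error only. The 10 genes and the lists were chosen with earlier results of these data known. Named are the 10 genes, the muscle actins, up to 3 called genes in each direction per list whose average log2 CPM reached 3, and any gene of the SRF cofactor, TCF target and reference lists. Exon overlaps and shared 100-base windows were read from GENCODE vM21 and promoters from RefSeq (GRCm38.p6); for no gene of the 10 did positions differ from those deposited. Some genes of the lists are not reported here.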

Additional observations from a re-analysis of the deposited data

How the results depend on the processing

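The calls of Actb, Pfn1, Tagln2, Tmsb4x and Cfl1 as lower were kept in all 17 other fits, and those of Tpm1 and Flna as not called in the same 17 and of Vcl in 15. Under the study's filter, which also asks for a fold, 4 of the 5 passed and Cfl1 did not. Log2 fold changes ran from -1.65 to -1.41 for Actb and from 0.21 to 0.46 for Actg1, which was called higher in 7. Counts of calls moved more. Over all genes 2230 were called in the main analysis, 4276 with DESeq2, 1232 with the replicate block by column letter, 995 with the replicate block and gene length offsets, and 1253 to 1556 with a library left out (1458 without G786-1089 C, 1253, 1318 and 1265 without DMSO A, B and C). Of the MRTF-SRF targets besides the 10 genes, 4 became 1 under the study's filter, 0 with the replicate block, 1 with the replicate block and length offsets, and 2 to 5 with a library left out (2 without DMSO A, B or C). Of the actin machinery besides the 10 genes, 24 became 37 with DESeq2, 12 under the study's filter, 15 with the replicate block, 14 with the replicate block and length offsets, and 15 to 20 with a library left out (15 without DMSO B). The cause was not tested, but a block and a left-out library also remove residual degrees of freedom. Same-letter libraries deviated together only weakly, with correlations of 0.0027 to 0.0251 across genes, and the main analysis did not take letters as pairs. The study does say that a replicate's treatments were handled together, but not that the letters mark those replicates, so values with the block stand beside the calls it ends. The difference in the share of Actb was -30.99 points with the pseudogene copies of Actg1 included, against -28.5. Scaling by library size alone moved the median log2 fold change of all genes by 0.20 and the split of calls from 1177 lower and 1053 higher to 796 and 1630; Actb lay 1.65 below that median either way. Low counts limit Vcl, Srf, the muscle actins and most SRF partners.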

Other observations

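Actin-related proteins of the nucleus and of dynactin had 1 of 8 tested genes called, against 7.8% of all genes called lower and 20.8% of those whose average log2 CPM reached 5, as did 6 of the 8. Actl6a, a subunit of chromatin remodelling complexes, was at 74.8, 76.4 and 87.4 FPKM with DMSO and at 46.9, 54.0 and 56.1 with G786-1089 (log2 fold change -0.60, SE 0.11, edgeR adjusted p = 0.0168).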
